A study of Rattus norvegicus with 24 samples.

Results

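The endocannabinoid genes described here are the 2 cannabinoid receptors Cnr1 and Cnr2 and the 5 enzymes Dagla, Daglb, Napepld, Mgll and Faah. They were chosen by name, as 7 of the 23950 genes listed for each library, and each name matched 1 gene. RNA of the nucleus accumbens (NAc) of Sprague Dawley pups at P14 (postnatal day 14) was sequenced in 24 libraries, 4 in each of 6 groups and each replicate from its own litter. In the F1 in utero oxycodone (F1 IUO) group, the F0 mothers received oral oxycodone at 10 mg/kg/day for 5 days, were raised by 0.5 mg/kg/day over 10 days to 15 mg/kg/day, were then mated, and stayed on the drug until weaning. In the F1 postnatal oxycodone (F1 PNO) group, the mothers received 15 mg/kg/day from birth of the litter to weaning, so that the IUO pups were also nursed by treated mothers. The F1 SAL pups came from saline control mothers. The F2 SAL, F2 PNO and F2 IUO pups were born to untreated F1 females of those groups and males outside the experiment, and were not themselves given the drug. Pups were taken as male or female at random and their sex is not given. Generation and the time of collection cannot be told apart. The tissue was cut with a brain matrix and measured in bulk, so that fewer cells of a type and less RNA per cell cannot be told apart.

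Endocannabinoids are lipid messengers, chiefly anandamide and 2-arachidonoylglycerol (2-AG), which neurons make on demand and which travel backwards across the synapse. They bind the CB1 receptor on the presynaptic terminal and lower transmitter release, and in the striatum this retrograde signal underlies long-term depression of cortical input. The CB2 receptor belongs mainly to immune cells, in the brain to microglia. 2-AG is made by the diacylglycerol lipases (Dagla, Daglb) and broken down by monoacylglycerol lipase (Mgll), while anandamide can be made by the phospholipase encoded by Napepld and is broken down by the hydrolase Faah.

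All 7 genes were detected in the NAc, and the levels spread over a wide range. Levels are FPKM, a fragment count scaled for the length of the gene and the size of the library, so that genes of different length can be compared. Over the 24 libraries the mean FPKM was 26.6 ± 5.54 (SD) for Mgll, 25.8 ± 4.39 for Dagla, 16.6 ± 3.48 for Cnr1, 7.13 ± 1.12 for Daglb, 6.25 ± 1.37 for Faah, 1.42 ± 0.838 for Napepld and 0.353 ± 0.128 for Cnr2. Mgll and Dagla, a breakdown and a synthesis enzyme of 2-AG, thus had the highest levels and Cnr2 the lowest. None of the 7 was listed at 0 in any library. In the mean FPKM of all genes, Mgll lay at percentile 87.5 and Cnr2 at percentile 34.3.

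Most neighbours in this order were separated library by library. A permutation test flipped the sign of the 24 within-library differences in log2(FPKM + 0.1) for the 6 pairs of neighbours. It was two-sided and adjusted over those 6. The order itself came from the same 24 libraries. Ratios here are the mean of these differences turned back from the log scale, and so differ from ratios of the mean FPKM. Mgll exceeded Dagla in 11 of 24 libraries, and this pair did not differ beyond its spread (permutation p = 0.573). Dagla exceeded Cnr1 in 23 of 24 libraries, with a ratio of 1.56, and Cnr1 exceeded Daglb in all 24, with a ratio of 2.29. Both of these p-values were the smallest that the permutations can give (1e-05, adjusted 2e-05). Daglb exceeded Faah in 16 of 24 libraries with a ratio of only 1.15 (permutation p = 0.00419, adjusted 0.00503). Faah exceeded Napepld in all 24 libraries, with a ratio of 4.97, and Napepld exceeded Cnr2 in 22 of 24, with a ratio of 2.86 (permutation p = 1e-05 and 2e-05).

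**Figure D1:**
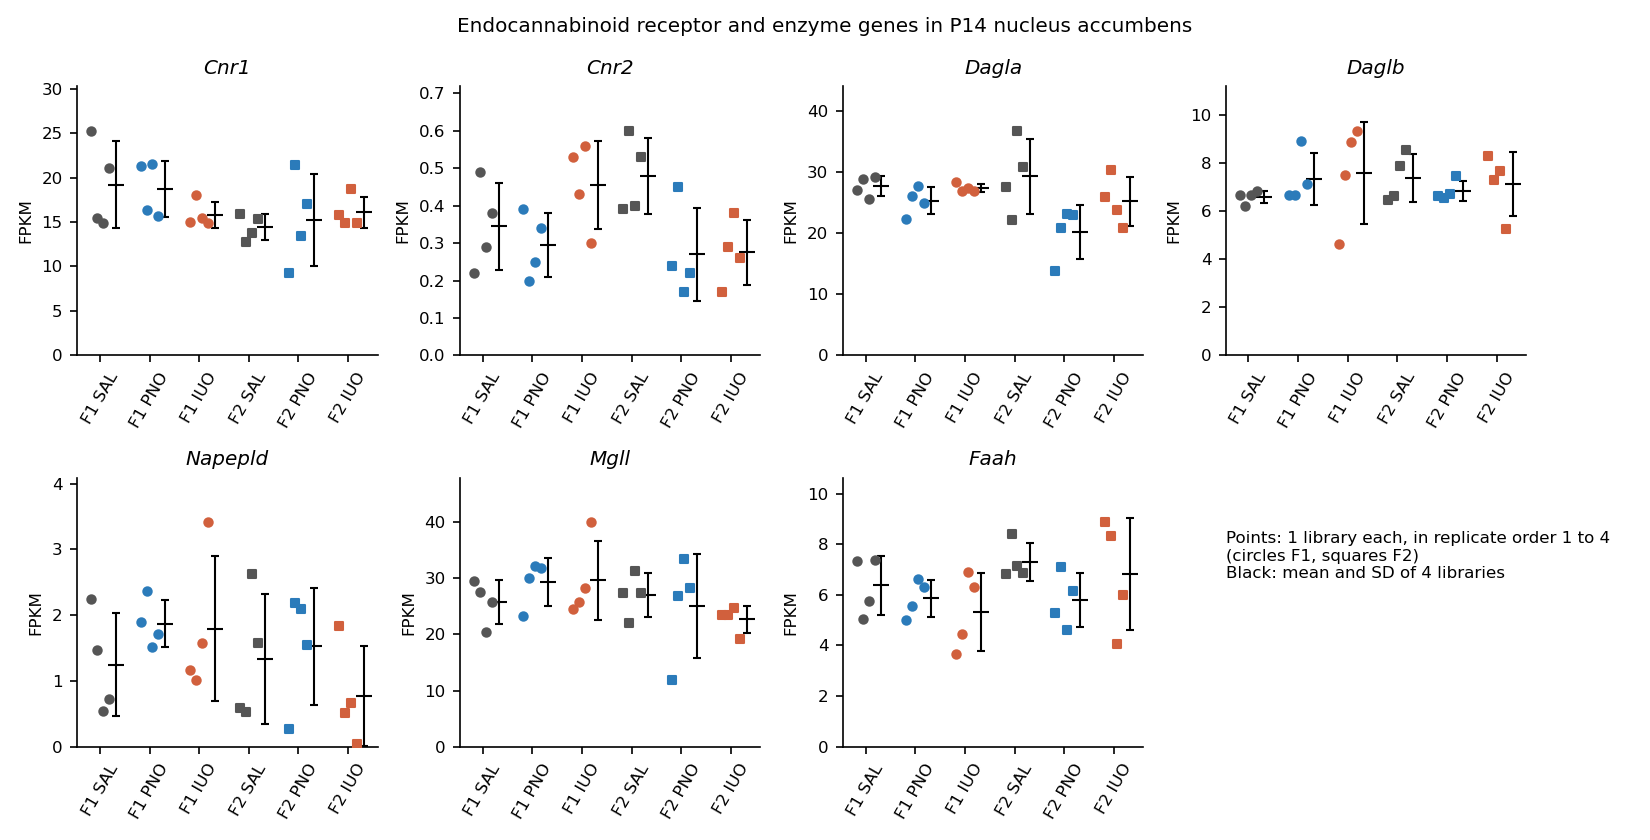
FPKM of the 7 genes in each library, with 1 panel per gene, the 6 groups along the x axis (circles F1, squares F2), and the mean and SD of 4 libraries in black. Cnr1, Dagla and Mgll have their lowest point in F2 PNO replicate 1, and Napepld has the widest scatter, from 0.05 to 3.41.

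Cnr1 (ENSRNOG00000008223) encodes CB1, the receptor through which the retrograde signal acts. In F1 SAL its FPKM was 25.25, 15.5, 14.92 and 21.11 in replicates 1 to 4, in F1 PNO 21.33, 16.31, 21.56 and 15.72, and in F1 IUO 14.96, 17.99, 15.47 and 14.85. In F2 SAL it was 15.95, 12.77, 13.79 and 15.3, in F2 PNO 9.21, 21.36, 13.38 and 17, and in F2 IUO 15.77, 14.94, 18.66 and 14.93. The group means ran only from 14.5 ± 1.44 in F2 SAL to 19.2 ± 4.91 in F1 SAL, and every pair of groups overlapped. F1 SAL and F2 PNO each held both high and low libraries, while F1 IUO, F2 SAL and F2 IUO were narrow.

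Cnr2 (ENSRNOG00000009260) encodes CB2. Its FPKM was 0.22, 0.49, 0.29 and 0.38 in F1 SAL, 0.39, 0.2, 0.25 and 0.34 in F1 PNO, and 0.53, 0.43, 0.56 and 0.3 in F1 IUO. In F2 it was 0.39, 0.6, 0.4 and 0.53 in SAL, 0.24, 0.45, 0.17 and 0.22 in PNO, and 0.17, 0.29, 0.38 and 0.26 in IUO. All 4 F2 SAL libraries lay above all 4 F2 IUO libraries, by a gap of 0.01 FPKM between the nearest values, and above 3 of the 4 F2 PNO libraries. The deposited values carry 2 decimals, which leaves 2 significant digits for this gene. The ratio of Cnr1 to Cnr2 within a library ranged from 21.3 to 115, with group means from 31.4 ± 8.33 in F2 SAL to 67.2 ± 19.7 in F1 PNO.

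Dagla (ENSRNOG00000027264), the main 2-AG synthase at neuronal synapses, was even in F1. Its FPKM was 27.03, 28.82, 25.59 and 29.13 in F1 SAL, 22.36, 26.07, 27.6 and 24.97 in F1 PNO, and 28.25, 26.82, 27.35 and 26.89 in F1 IUO. In F2 it was 27.5, 22.04, 36.68 and 30.84 in SAL, 13.75, 20.86, 23.12 and 23 in PNO, and 25.93, 30.28, 23.7 and 20.84 in IUO. The F2 PNO mean of 20.2 ± 4.41 was the lowest of the 6 groups and the F2 SAL mean of 29.3 ± 6.13 the highest, and these groups overlapped through F2 SAL replicate 2. The second synthase, Daglb (ENSRNOG00000001079), had group means between 6.58 ± 0.253 in F1 SAL and 7.57 ± 2.12 in F1 IUO, and single libraries between 4.61 and 9.32. The ratio of Dagla to Daglb averaged 3.69 ± 0.795 over the 24 libraries.

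Napepld (ENSRNOG00000011363) was the most variable of the 7 genes, with a coefficient of variation of 58.9% over the 24 libraries against 15.7% to 36.2% for the other 6. Its FPKM was 2.25, 1.47, 0.55 and 0.72 in F1 SAL, 1.89, 2.36, 1.52 and 1.71 in F1 PNO, and 1.17, 1.02, 1.57 and 3.41 in F1 IUO. In F2 it was 0.59, 0.53, 2.63 and 1.58 in SAL, 0.27, 2.19, 2.09 and 1.55 in PNO, and 1.84, 0.51, 0.67 and 0.05 in IUO. The highest library exceeded the lowest about 68-fold, and both were IUO libraries. The lowest value, 0.05 FPKM, lies under the 0.1 FPKM of the filter and near the limit of 2 decimals, so this ratio is imprecise. Only in F1 PNO did the 4 libraries lie close together, with a mean of 1.87 ± 0.360.

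Mgll (ENSRNOG00000014508), which ends the 2-AG signal, had an FPKM of 29.47, 27.59, 20.39 and 25.67 in F1 SAL, 23.17, 30.08, 32.13 and 31.82 in F1 PNO, and 24.51, 25.82, 28.31 and 39.89 in F1 IUO. In F2 it was 27.31, 21.97, 31.3 and 27.37 in SAL, 11.83, 26.82, 33.35 and 28.31 in PNO, and 23.49, 23.39, 24.7 and 19.14 in IUO. The F2 IUO mean of 22.7 ± 2.43 was the lowest and the F1 IUO mean of 29.6 ± 7.02 the highest, and the groups overlapped. The ratio of Dagla to Mgll stayed near 1, with a mean of 0.994 ± 0.170 and a range of 0.674 to 1.29. Faah (ENSRNOG00000045949), which ends the anandamide signal, ranged from 3.65 to 8.86 FPKM, with group means from 5.32 ± 1.53 in F1 IUO to 7.31 ± 0.742 in F2 SAL.

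Exposure was compared with saline within each generation, to ask whether in utero or postnatal oxycodone changed these genes. Differences were tested by limma on log2(FPKM + 0.1) over all genes that passed a filter on low values, with Benjamini-Hochberg adjustment over all of them, and a gene was called at an adjusted p under 0.05. All 7 genes passed the filter in every comparison. In F1 IUO against F1 SAL none of the 7 was called, had an unadjusted p under 0.05 or had groups that did not overlap, which held for 0%, 3.91% and 2.54% of the 17380 genes tested. The largest differences were in Napepld (log2 fold change 0.52, SE 0.488) and Cnr2 (0.33, SE 0.353). The tightest was in Dagla, at -0.01 with a 95% interval from -0.21 to 0.18. In F1 PNO against F1 SAL none of the 7 met any of these, against 0%, 13.9% and 8.27% of 17494 genes. Napepld had the widest difference there as well, 0.72 with an interval from -0.16 to 1.59, and Cnr1 was at -0.02 with an interval from -0.44 to 0.41.

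In F2 IUO against F2 SAL none of the 7 was called by limma (0% of 17097 genes), and none had an unadjusted p under 0.05 (8.49% of all genes). Of the 7, 6 had a log2 fold change below 0, against 60.4% of all genes tested. Napepld had the largest difference, -0.97 with an interval from -2.70 to 0.77. It was at -1.13 and -2.82 with the thalamus and microglia markers, each as a covariate. Mgll was at -0.25, at -0.27 and -0.48 with these covariates, at -0.32 with upper-quartile rescaling and at -0.34 without F2 SAL replicate 2. These alternative fits, and that of Cnr2 with all 24 libraries, had an unadjusted but not an adjusted p under 0.05. No other setting gave such a p here. Only Cnr2 had groups that did not overlap, against 5.11% of all genes. It had 0.480 ± 0.102 FPKM in F2 SAL and 0.275 ± 0.0866 in F2 IUO (n = 4 each). Its log2 fold change was -0.64 (SE 0.358, limma adjusted p = 0.626). An exact permutation test of 4 against 4 libraries, counting differences in either direction, gave p = 0.0286, the smallest that 35 splits allow. Groups of this size that do not overlap always give this p, so the test adds no support beyond the lack of overlap. Among the 63 pairs of gene and comparison, this was the only 1 without overlap.

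In F2 PNO against F2 SAL none was called (0.00576% of 17367 genes), and Dagla alone had an unadjusted p under 0.05 (10.8% of all genes). No pair of groups was free of overlap (7.01% of all genes). The log2 fold change of Dagla was -0.54 (SE 0.209, 95% interval -1.01 to -0.07, limma adjusted p = 0.422). The exact permutation test of the same libraries gave p = 0.0857. The unadjusted p of Dagla was no longer under 0.05 when any of 3 libraries was left out. Without F2 PNO replicate 1, which had 13.75 FPKM, the difference was -0.37. It was -0.42 without F2 SAL replicate 3 and -0.51 without F2 SAL replicate 4. Cnr2 was at -0.69 (limma adjusted p = 0.504) and Faah at -0.34 (limma adjusted p = 0.503) in the same comparison, with intervals that reached above 0. The 2 F2 comparisons share the F2 SAL libraries.

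**Figure D2:**
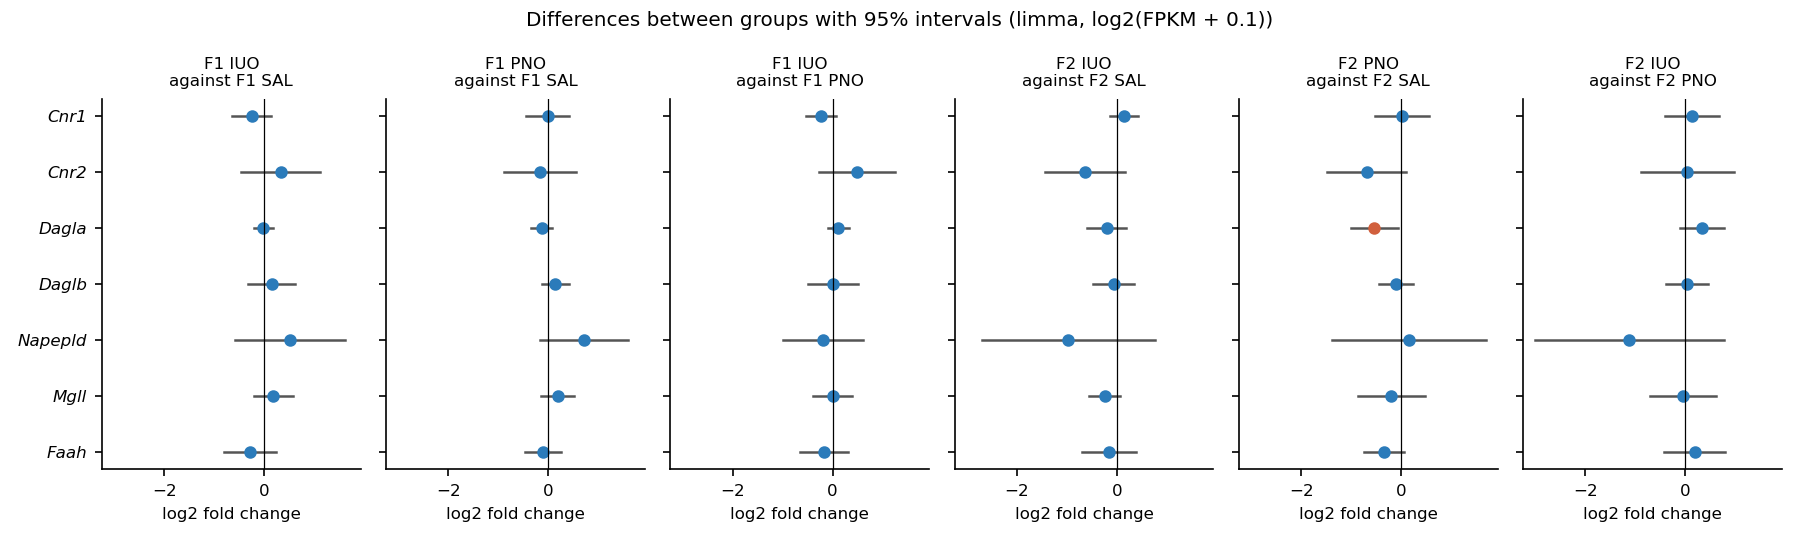
Log2 fold change of each gene (y axis) with its 95% interval (x axis) in the 6 comparisons within a generation, from limma on log2(FPKM + 0.1) with 4 libraries a group. The interval of Dagla in F2 PNO against F2 SAL, drawn in orange, is the only one that leaves out 0, and the intervals of Napepld are the widest.

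The IUO and PNO groups were also set against each other. In F1 IUO against F1 PNO none of the 7 was called, had an unadjusted p under 0.05 or was free of overlap, against 0.133%, 16.5% and 10.5% of 17306 genes. The median log2 fold change of the 7 was 0.00, against 0.03 over all genes. Mgll was at 0.00 with an interval from -0.38 to 0.39, and at 0.40 with the mean level of the thalamus markers as a covariate, where its unadjusted p was under 0.05 and its adjusted p was not. No other setting gave any of the 7 an unadjusted p under 0.05 in this comparison. The thalamus marker level was 2.38 ± 1.24 in F1 IUO and 4.14 ± 0.569 in F1 PNO, so that marker level and group can only partly be told apart. Cnr1 was at -0.23 with an interval from -0.54 to 0.08, and Cnr2 at 0.49 with an interval from -0.28 to 1.26. In F2 IUO against F2 PNO none met any of these, against 0%, 7.07% and 4.74% of 17090 genes. Napepld was at -1.12, with an interval from -3.01 to 0.77. It was at -1.73 without F2 PNO replicate 1 and at -1.98 with the cortical markers as a covariate, both with an unadjusted but not an adjusted p under 0.05. Mgll was at -0.05, and at -0.38 without the same library with an unadjusted p under 0.05, and Dagla was at 0.33, with an interval from -0.10 to 0.77.

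No gene of the 7 was called between generations of a lineage, had an unadjusted p under 0.05 or was free of overlap. In F2 SAL against F1 SAL 0.0343%, 8.48% and 4.98% of 17497 genes did, and the nearest of the 7 to the threshold was Cnr1 at -0.38 (SE 0.173, limma adjusted p = 0.593). In F2 IUO against F1 IUO the shares of 16916 genes that met these were 0%, 15.0% and 10.7%. Mgll was at -0.36 (limma adjusted p = 0.344) and Napepld at -1.48 (SE 0.719, limma adjusted p = 0.364). In F2 PNO against F1 PNO the shares of 17370 genes were 0.0288%, 4.76% and 3.34%. All 7 genes had a log2 fold change below 0 there, as had 58.7% of all genes, with a median of -0.31 against -0.06 over all genes, and F2 PNO replicate 1 was among these libraries.

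Whether the effect of exposure differed between the generations was tested as an interaction in limma over 16 libraries. For IUO against SAL none of the 7 was called (0% of 18437 genes), and Cnr2 alone had an unadjusted p under 0.05 (5.15% of all genes). Its effect was 0.33 in F1 and -0.64 in F2, a difference of -0.97 (SE 0.444, 95% interval -1.91 to -0.03, limma adjusted p = 0.924). For PNO against SAL none was called (0% of 18608 genes) or had an unadjusted p under 0.05 (4.06% of all genes). The same held for IUO against PNO (0% of 18405 genes, and 5.76% unadjusted). An F test of any difference among the 6 groups in limma called none of the 7 (0.141% of 19134 genes). Dagla alone had an unadjusted p under 0.05 in it (F = 3.15, limma adjusted p = 0.250), as had 16.6% of all genes.

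The tissue was checked by marker lists, since a matrix section can take in neighbouring regions. All 10 striatal projection neuron markers, among them Drd1, Drd2 and Ppp1r1b, were above 0 in every library, with a summed FPKM of 408 to 1339. The lowest of them, Bcl11b, had a median of 1.47 FPKM and fell to 0.05. The summed FPKM of 6 thalamus markers ran from 17.7 to 304, of 6 cortical excitatory neuron markers from 9.58 to 348 and of 7 choroid plexus markers from 5.51 to 12279. That of 7 hypothalamus markers ran from 3.99 to 262. Each of the 7 genes was correlated with the mean log2(FPKM + 0.1) of 11 marker lists over the 24 libraries, which gave 77 pairs with 100000 permutations each. By Pearson r, 4 of these had an adjusted p under 0.05, all with r above 0. By Spearman rho 5 had, all above 0, and 2 pairs passed by both measures, Napepld with thalamus and Cnr2 with microglia. How many of all genes follow these lists was not counted, so the counts do not set the 7 genes apart. The permutations moved libraries across groups, so that differences between groups enter these p-values. Values of r after centring on group means are given without a test.

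Napepld went with the thalamus markers (Pearson r = 0.702, permutation p = 0.00011, adjusted 0.00719, Spearman rho = 0.794, permutation p = 3e-05). The relation had r = 0.841 within F1 and 0.691 within F2, 0.803 after each group was centred on its mean, and 0.693 without the 2 libraries farthest from the median marker level. Summed thalamus markers were 117 to 304 FPKM in F1 PNO, the group in which Napepld was even, and 17.7 to 151 in F1 SAL. The mean log2 level of these markers was 2.32, 4.14 and 2.38 in F1 SAL, PNO and IUO, and 2.52, 2.69 and 2.73 in F2. Napepld means were 1.25, 1.87 and 1.79 FPKM in F1 and 1.33, 1.525 and 0.77 in F2, in the same order. F2 IUO thus had the lowest Napepld mean but not the lowest marker level. Among the thalamus markers Lhx9 was listed at 0 in at least 1 library of F1 SAL, F1 IUO and F2 SAL. Napepld also went with the astrocyte markers (r = 0.651, permutation p = 0.00064, adjusted 0.0123), but rho was 0.402 (permutation p = 0.0520, adjusted 0.223) and r was 0.346 without the 2 farthest libraries, so that this relation rested on those libraries. With the vessel markers Napepld had rho = 0.633 (permutation p = 0.00118, adjusted 0.0227) and r = 0.432 (permutation p = 0.0351, adjusted 0.193). Of those 3 markers only 2 were found, Flt1 and Cldn5. Cldn5 was at 0 in a library of every group and had a median of 0 FPKM over the 24 libraries. The vessel marker level thus mostly followed Flt1 alone.

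Cnr2 went with the microglia markers (r = 0.681, permutation p = 0.00028, adjusted 0.00719, rho = 0.703, permutation p = 0.00018). The r was 0.659 within F1 and 0.691 within F2, 0.442 after centring on group means and 0.601 without the 2 farthest libraries. Of the 7 microglia markers listed, 6 were found by name and none was at 0 in any library. Their summed FPKM was 113 to 156 in F2 SAL, 104 to 116 in F2 PNO and 90.3 to 140 in F2 IUO, and these ranges overlapped. With the mean level of these markers as a covariate, chosen after seeing the data, the Cnr2 interaction was -0.68 (limma adjusted p = 0.623) and its unadjusted p was no longer under 0.05.

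**Figure D3:**
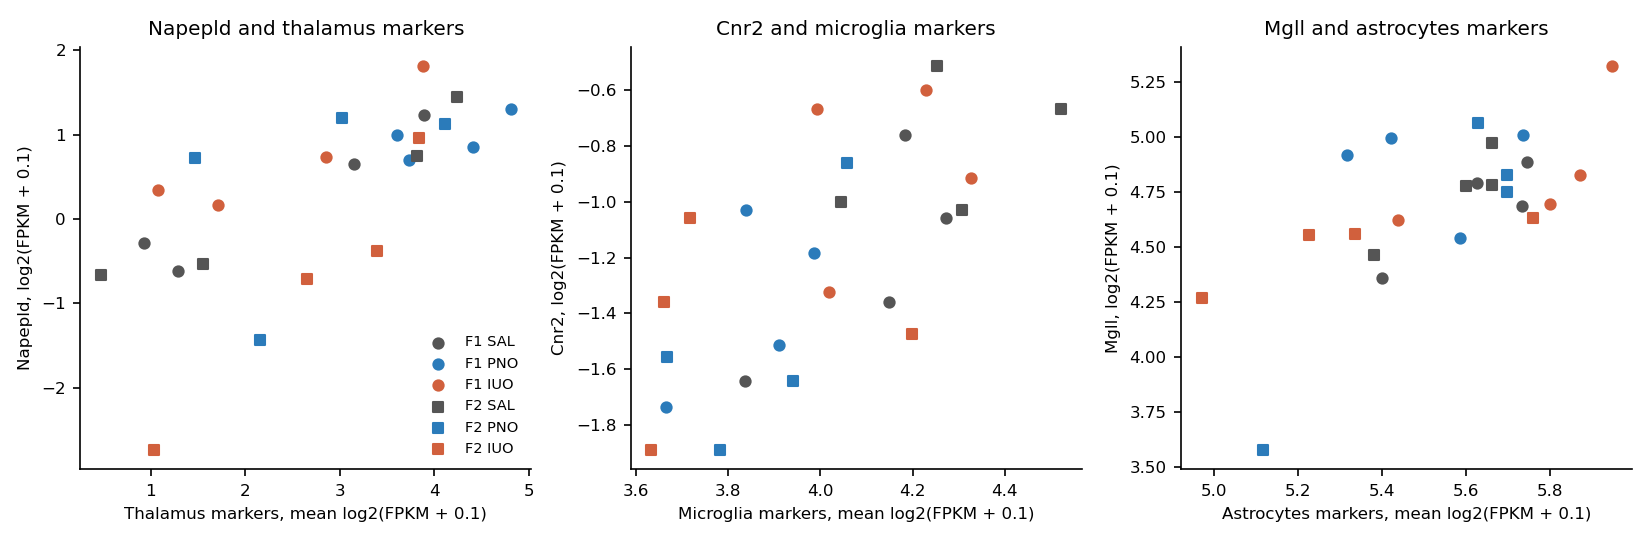
Level of 1 gene (y axis) against the mean level of 1 marker list (x axis), both as log2(FPKM + 0.1), 1 point per library with circles for F1 and squares for F2. Pearson r over the 24 libraries is 0.702 for Napepld with thalamus, 0.681 for Cnr2 with microglia and 0.683 for Mgll with astrocytes.

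Mgll went with the astrocyte markers (r = 0.683, permutation p = 0.00026, adjusted 0.00719, rho = 0.563, permutation p = 0.00492, adjusted 0.0541). By rho the call was thus lost. The r was 0.436 within F1 and 0.757 within F2, 0.692 after centring and 0.516 without the 2 farthest libraries. F2 PNO replicate 1, the library with the lowest Mgll, had the second lowest astrocyte marker level, a mean log2(FPKM + 0.1) of 5.12. With the thalamus markers, which Napepld also followed, Mgll had rho = 0.687 (permutation p = 0.00028, adjusted 0.00719) and r = 0.518 (permutation p = 0.00633, adjusted 0.0637). Daglb passed by rho alone with the choroid plexus markers (rho = 0.593, permutation p = 0.00265, adjusted 0.0408), where r was 0.560 (permutation p = 0.00451, adjusted 0.0637). For Cnr1 the highest r was with the cortical excitatory neuron markers (0.547, permutation p = 0.00745, adjusted 0.0637), and rho was 0.517 (permutation p = 0.0109, adjusted 0.104). Its r was 0.448 within F1 and 0.731 within F2, 0.726 after centring and 0.333 without the 2 libraries farthest from the median, so that it was weaker without them. Those markers were lowest in F1 SAL replicate 3, at 9.58 summed FPKM, and in F2 PNO replicate 1, at 22.4. Dagla and Faah had no pair with an adjusted p under 0.05, and the r of Faah farthest from 0 was 0.335, with the choroid plexus markers. What these relations owe to the cut of the tissue was not tested.

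**Figure D4:**
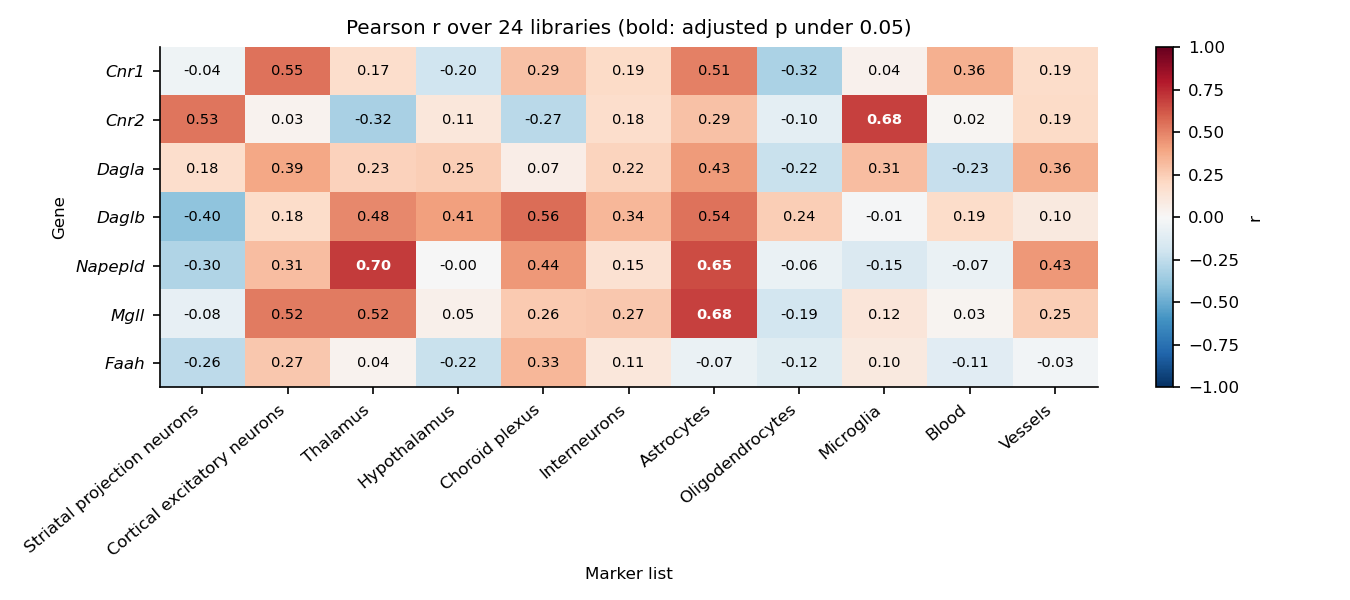
Pearson r over 24 libraries between each of the 7 genes (rows) and the mean level of each of 11 marker lists (columns), with r printed in each cell and in bold where the adjusted permutation p was under 0.05. The 4 bold cells are Napepld with thalamus (0.70) and astrocytes (0.65), Mgll with astrocytes (0.68) and Cnr2 with microglia (0.68).

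Some libraries were low or high for several genes together. F2 PNO replicate 1 was the lowest of its group for Cnr1, Dagla, Mgll and Napepld. Without it the group mean would be 17.2 ± 4.00 for Cnr1, 22.3 ± 1.27 for Dagla, 29.5 ± 3.42 for Mgll and 1.94 ± 0.344 for Napepld (n = 3). Its Daglb and Faah, at 6.62 and 5.29 FPKM, were within the range of the other 3 libraries. Its oligodendrocyte markers, at 3626 summed FPKM, were the highest of the 24. F1 SAL replicate 3 and F2 SAL replicate 2 were the lowest of their groups for the same 4 genes, F2 IUO replicate 4 was the lowest for 5 genes, and F1 PNO replicate 3 the highest for 5.

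Among the 21 pairs of the 7 genes, Mgll and Napepld followed each other most closely over the 24 libraries (r = 0.757, permutation p = 9e-05, adjusted 0.00189, rho = 0.732). The r was 0.743 after centring on group means and 0.749 without the 2 libraries farthest from the median of Mgll. Dagla and Mgll had r = 0.660 (permutation p = 0.00339, adjusted 0.0356), but rho was 0.360 and r was 0.256 without the 2 libraries farthest in Dagla, so that this pair rested on them. Cnr1 and Cnr2 had r = 0.0034. All levels in a library share its scaling.

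The stretch of 250 bases before the transcription start is shown for Mgll and Napepld, the pair that moved together, and for Cnr2, the gene with the lowest level. The sequences are from RefSeq on the rat build GRCr8, read 5′ to 3′ on the strand of the gene, with every CG in capitals. RefSeq promoter entries were found for 5 of the 7 genes (Cnr2, Daglb, Mgll, Faah and Napepld).
Mgll (chr4:122749186-122749435, plus strand): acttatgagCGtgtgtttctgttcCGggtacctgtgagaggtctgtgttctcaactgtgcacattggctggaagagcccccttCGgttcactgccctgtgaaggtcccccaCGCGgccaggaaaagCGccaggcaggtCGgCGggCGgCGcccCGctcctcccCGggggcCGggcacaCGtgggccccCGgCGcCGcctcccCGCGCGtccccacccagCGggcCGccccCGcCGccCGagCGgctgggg
Napepld (chr4:14253010-14253259, plus strand): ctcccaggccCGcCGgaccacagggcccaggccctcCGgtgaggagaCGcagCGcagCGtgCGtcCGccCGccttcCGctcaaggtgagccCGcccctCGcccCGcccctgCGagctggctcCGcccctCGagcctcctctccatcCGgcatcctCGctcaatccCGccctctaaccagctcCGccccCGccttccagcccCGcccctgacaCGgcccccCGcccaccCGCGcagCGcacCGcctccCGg
Cnr2, the first of its 3 starts by position (chr5:153408934-153409183, plus strand): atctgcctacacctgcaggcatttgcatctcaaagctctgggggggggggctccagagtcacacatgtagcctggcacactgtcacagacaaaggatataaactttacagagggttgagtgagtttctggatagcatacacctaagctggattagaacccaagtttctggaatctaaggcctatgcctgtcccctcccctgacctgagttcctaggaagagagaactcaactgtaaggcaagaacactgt
The Napepld stretch held 29 CG and that of Mgll 26, and 6.04% and 8.64% of the 33469 rat promoter stretches of this length held as many or more. Faah also held 26 and Daglb 15, where the median of all was 5. The Cnr2 stretch held no CG, as was the case in 7.83% of all, and its other starts held 7 and 4. The files hold no measurement at these sites.

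The genes whose levels were most like each gene were named as the 3 with the highest r over the 24 libraries, among 13675 genes with a mean of at least 1 FPKM. For Cnr1 these were Ndrg3 (r = 0.814), Synj2 (0.789) and Rasa1 (0.783), for Dagla Nckap5l (0.903), Pde4a (0.901) and Atg2a (0.895), and for Mgll Kif3b (0.892), Shtn1 (0.891) and Nmt2 (0.889). For Napepld they were Adamts17 (0.900), AABR07058699.2 (0.887) and Rnf152 (0.887), and for Daglb LOC294154 (0.877), Usp20 (0.857) and Ccdc71l (0.852). Faah had the loosest company, Tor2a (0.709), Pgap3 (0.696) and Ccdc167 (0.692). Cnr2 was under that level and was not included. These are descriptions over libraries that share the marker differences given above.

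The rest of the pathway was taken as 32 genes in 5 lists, of which 25 to 29 passed the filter depending on the comparison. Of the other breakdown enzymes, Abhd12 (82.2 ± 9.25 FPKM) and Abhd6 (15.6 ± 2.31), hydrolases that also split 2-AG, were well above 0 in all 24 libraries. Of the other synthesis enzymes, Abhd4 (44.4 ± 6.35) and Gde1 (53.7 ± 7.80), which act on another route to anandamide, were as well. The proposed cannabinoid receptors Gpr55, Gpr18 and Gpr119 were listed at 0 in 13, 17 and 18 of 24 libraries. Cnrip1, which binds the tail of CB1, had 92.8 ± 18.4 FPKM, and the fatty acid binding proteins Fabp3, Fabp5 and Fabp7, which carry such lipids in the cell, had 71.3 ± 13.6, 255 ± 47.1 and 209 ± 44.7.

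Only Grm5 was called among the 32 genes by limma in any comparison. It encodes mGlu5, a receptor whose activation drives 2-AG synthesis. In F1 IUO against F1 PNO it had 16.9 ± 1.18 against 8.55 ± 1.47 FPKM (log2 fold change 0.98, SE 0.135, limma adjusted p = 0.0468), in a comparison where 7 of 27 genes of the lists had an unadjusted p under 0.05, as had 16.5% of all genes. The adjusted p lay between 0.0372 and 0.535 under the alternatives, and was above 0.05 in 15 of 17. The F1 SAL mean of Grm5 lay between, at 12.3 ± 2.48 FPKM. Against F1 SAL, F1 IUO was at 0.47 (limma adjusted p = 0.999) and F1 PNO at -0.52 (limma adjusted p = 0.267). Both had an unadjusted p under 0.05 and neither was called. The striatal projection neuron markers summed to 837 to 1180 FPKM in F1 IUO and 539 to 771 in F1 PNO. Their mean log2(FPKM + 0.1) overlapped, at 5.11 to 5.80 in F1 IUO and 4.65 to 5.58 in F1 PNO. By summed FPKM the hypothalamus markers were also apart between these groups, at 43.8 to 158 against 3.99 to 12.7. So were the microglia markers, at 117 to 143 against 86.4 to 107, while the other 8 lists overlapped. Their part in the result was not tested.

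Of the carriers and Cnrip1, none was called in any comparison. In F1 IUO against F1 PNO, Fabp7 had 166 ± 9.43 against 231 ± 29.1 FPKM (log2 fold change -0.47, limma adjusted p = 0.117) and Fabp5 210 ± 13.6 against 262 ± 16.8 (-0.32, limma adjusted p = 0.164). In F2 IUO against F2 PNO, Fabp3 had 92.7 ± 8.17 against 61.5 ± 6.80 FPKM (log2 fold change 0.59, limma adjusted p = 0.399) and Cnrip1 121 ± 13.4 against 85.4 ± 18.7 (0.52, limma adjusted p = 0.569). There 5 of 25 genes had an unadjusted p under 0.05, all higher in F2 IUO, where 4.59% of all genes were higher at that p. Against F2 SAL, 3 were higher and 1 lower of 26 (3.52% and 4.97% of all genes), with Fabp3 at 0.34 and Cnrip1 at 0.34. Against F1 IUO, 3 were higher and 3 lower of 26 (5.35% and 9.65%), with Fabp5 at 0.63, Cnrip1 at 0.54 and Fabp3 at 0.50. In F2 PNO against F2 SAL none of 26 had an unadjusted p under 0.05, against 10.8% of all genes.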

How the data were processed

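Total RNA of NAc tissue from 24 P14 pups was sequenced, and groups were taken from the labels of generation and treatment. Per the file headers and the paper's methods, the authors deposited FPKM values per gene, estimated by StringTie after transcripts of all samples were merged. HISAT2, SAMtools and edgeR are also named in the submitters' processing notes, and the genome build is not given in the sources used here. Values have 2 decimals and were not rescaled. The FPKM of a library summed to 535866 to 766781. The number of reads is unknown, which leaves counting error and detection limits out.

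Groups were compared by linear models in limma 3.58.1 under R 4.3.3 (lmFit, eBayes with a trend) on log2(FPKM + 0.1). A gene entered a fit when 4 or more of its libraries reached 0.1 FPKM. Since FPKM are no counts, the count test named for the study was not run. The two-sided p-values were adjusted by Benjamini-Hochberg over every gene in the fit, and unadjusted counts are given beside them. The 7 genes were tested one by one by exact permutation too. Correlations used 100000 permutations, adjusted over the 77 pairs of gene and marker list and over the 21 pairs of genes. Fold changes understate differences of low genes such as Cnr2, because of the pseudocount. The procedure was tested on simulated data.

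The 7 genes and all lists were chosen with earlier results of these data known. Beside them the text names, in the pathway lists, genes with the smallest unadjusted p under 0.05 (at most 3 per comparison) and levels of further list genes picked for description. Alternatives were a pseudocount of 1, no filter, a filter at 1 FPKM, upper-quartile rescaling, covariates of cortical, thalamic or (added after seeing the data) microglia markers, all 24 libraries in one fit, a replicate block and leaving out each library. Python 3.11.15 with pandas 2.3.3, numpy 2.4.6 and scipy 1.17.1 was used for tables and permutations, and figures were drawn with matplotlib 3.10.9.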

Additional observations from a re-analysis of the deposited data

Results flagged for a closer look

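Each of the 7 genes was screened in each group of 4 libraries for a single library far from the rest, which made 42 groups. In 1 of them, Daglb in F2 PNO, replicate 4 had 7.45 FPKM while the other 3 libraries had 6.54 to 6.68. Its gap to the nearest library, divided by the spread from lowest to highest, was 0.846, past the 95% limit of Dixon's test. Chance gives such a library in about 1 in 20 groups, or 2.1 of 42.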

How the results depend on the processing

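No gene of the 7 had an adjusted p under 0.05 in any comparison, interaction or F test under the settings run, leaving out each library included. The difference of Dagla in F2 PNO against F2 SAL ranged from -0.67 to -0.37 with 1 library left out and was -0.40 (limma adjusted p = 0.999) with the microglia covariate. Its F over 6 groups was 1.91 (limma adjusted p = 0.382) without F2 PNO replicate 1 and 2.42 with the microglia covariate, both above an unadjusted 0.05. The Cnr2 interaction ranged from -1.12 to -0.82 with 1 library left out and lost its unadjusted p under 0.05 in 11 of these 16 fits. It was -0.93 with upper-quartile rescaling and -0.99 with the cortical covariate, and lost it there too, and was -0.33 with a pseudocount of 1. Causes were not tested. Among the other 82 pairs of gene and comparison, 48 of 1542 fits had an unadjusted p under 0.05, and none an adjusted one. Of these fits, 14 each were of Mgll and Napepld and 11 of Cnr1. In the main fits of these comparisons 3.91% to 16.5% of all genes had an unadjusted p under 0.05. The share of all genes under the alternatives is not given, so these counts are descriptions only. Among the 82 pairs, 34 changed direction in 110 fits. The 4 relations to marker lists stayed under an adjusted p of 0.05 with a pseudocount of 1 and with rescaling. By ranks, both relations to astrocyte markers were above it (0.0541 for Mgll and 0.223 for Napepld).

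Same-numbered libraries did not deviate together (median r -0.0176, range -0.227 to 0.167 over 60 pairs, against 0.00437 for other numbers), so no pairing by number was seen. A pairing with small effects or on few genes would not show in these values. With a replicate block the Cnr2 interaction was -0.97 and no longer under an unadjusted 0.05. Dagla in F2 PNO against F2 SAL was -0.54 and still was. Cnr1 in F2 SAL against F1 SAL (-0.38) and Dagla in F2 PNO against F1 PNO (-0.35) were under it only with the block. Without the block 8.48% and 4.76% of all genes had an unadjusted p under 0.05 in these last 2 comparisons. The shares with the block are not given. Depth is unknown, so the precision of low genes such as Cnr2 and Napepld cannot be given beyond the spread of 4 libraries.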
